A study of Homo sapiens with 5 samples.

Results

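The 10 genes described here, CDKN1A, MDM2, PMAIP1, GDF15, BBC3, BAX, FAS, SESN1, ZMAT3 and TP53I3, are long-known transcriptional targets of the tumour suppressor p53. They were taken by symbol, each has 1 row in every library, and they are 10 of the 33538 genes listed for D22 to D26 and of the 36601 listed for D0 to D10. Their UMI counts (unique molecular identifiers, each standing for 1 captured RNA molecule) were compared at D5 and D10 between cultures with and without XAV939, and at D22, D24 and D26 between cells rich in CCNO and the other cells.

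The study differentiated WA09, an established human embryonic stem cell line labelled wild type, toward neurons that make gonadotropin-releasing hormone (GnRH), and sequenced single cells on the 10x Genomics 3′ platform. D0 is the undifferentiated line. D5_dSMADi and D10_dSMADi had received dual-SMAD inhibition (dSMADi, dorsomorphin at 2 µM with SB431542 at 10 µM), and D5_XAV939 and D10_XAV939 had received the same inhibitors together with XAV939 at 10 µM, a tankyrase inhibitor that lowers Wnt signalling. D22, D24 and D26 came from the protocol without XAV939, after dSMADi for 10 days, FGF8 from day 11 to day 20 and the Notch inhibitor DAPT from day 21, and each condition is 1 library of 1 culture, with no replicate.

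The stabilized p53 protein binds response elements near its target genes and switches them on after DNA damage and other stresses. Its targets halt the cell cycle, prime or trigger cell death, and restrain p53 itself. Pluripotent cells are known to die readily once p53 is activated.

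The limits on cells kept 1008 cells at D0, 2419 of D5_dSMADi, 2815 of D5_XAV939, 2416 of D10_dSMADi, 2168 of D10_XAV939, 9523 at D22, 9107 at D24 and 11056 at D26, with 58073098 to 130440502 UMIs per library. The 5 conditions up to D10 were tagged, pooled and run as 1 droplet reaction at median depths of 24290.5 to 69455.5 UMIs per cell. D22, D24 and D26 were run one by one at median depths of 7180 to 12179, after another dissociation and with another Cell Ranger version, so levels were ordered within each of these sets and not across them. Between the early and the late set markers went with the labels, with the 6 pluripotent cell markers summing to 4437 CPM (UMIs scaled to 1000000 UMIs of the library or class of cells) at D0 and to 6.13 to 64.85 CPM at D22 to D26, and the 6 neuron markers to 171 to 508 CPM up to D10 and 2175 to 12420 CPM later. Within the early set the neuron markers did not follow the day. They were at 302 CPM at D0, 171 in D5_dSMADi, 197 in D5_XAV939, 297 in D10_dSMADi and 508 in D10_XAV939. No barcode was shared among the tagged conditions. Of the other pairs of libraries, D22 and D26 shared the most barcodes (32, or 0.336% of D22). The largest share was 0.414% of D10_dSMADi, with 10 barcodes shared with D26.

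The p53 response element joins 2 half-sites of 10 letters. Read with no spacer between the half-sites, it was searched on both strands within 5000 bases of the annotated start site of each gene in GRCh38 (GENCODE 44), with the central C and G of each half-site kept and at most 2 of the 20 letters differing. Such a match was found at 7 of the 10 genes and at 1533 of 20033 genes (7.65%). The best match at each of the 7 genes is shown because it is the sequence that these genes share, with the 4 central letters of each half-site in capitals, on the strand where it was read.

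ZMAT3: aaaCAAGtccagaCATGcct
CDKN1A: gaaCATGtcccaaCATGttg
MDM2: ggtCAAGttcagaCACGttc
PMAIP1: gggCTTGtttaccCAAGtct
GDF15: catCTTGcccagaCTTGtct
BAX: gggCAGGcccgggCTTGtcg
FAS: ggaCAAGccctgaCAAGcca

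The ZMAT3 match had 0 letters differing, as had matches at 30 of the 20033 genes (0.1498%), and lies inside the gene at chr3:179070188-179070207, 1612 bases downstream of its start site. The other 6 differed in 2 letters. CDKN1A has its match at chr6:36676449-36676468, overlapping the first bases of the annotated gene and at position -2256 from the main start site, and PMAIP1 at chr18:59899549-59899568, at position -438. The matches of MDM2 (chr12:68808923-68808942, position 755), BAX (chr19:48955213-48955232, position 347) and FAS (chr10:88991309-88991328, position 520) lie downstream of the start site within the genes. That of GDF15 (chr19:18385308-18385327) lies at position -841 from its main start site, within the span of the annotated gene. BBC3, SESN1 and TP53I3 held no such letters in this window. A match is a description of the sequence, and binding was not measured here.

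CDKN1A (ENSG00000124762, chr6:36676460-36687337) encodes p21, the inhibitor of cyclin-dependent kinases that carries out the p53 arrest. Its level was 2.65 CPM (95% interval 2.295 to 3.041) at D0, 5.22 (4.73 to 5.75) in D5_dSMADi, 4.01 (3.60 to 4.46) in D5_XAV939, 19.7 (18.7 to 20.7) in D10_dSMADi and 7.06 (6.39 to 7.78) in D10_XAV939. D10_dSMADi stood above the other 4 tagged conditions, and the intervals of all 5 were apart. In the late libraries it was 5.72 CPM at D22, 5.59 at D24 and 1.90 (1.64 to 2.19) at D26, where the intervals of D22 and D24 overlapped and D26 was lower. These intervals, like all intervals below, are at a level of 95%, take UMIs as independent and cover counting error only. The annotated CDKN1A overlaps DINOL on the other strand, and whether the counting used strand is not given in the sources used here.

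MDM2 (ENSG00000135679, chr12:68808177-68845544) encodes the ubiquitin ligase that marks p53 for destruction and closes the feedback loop. Its level was 44.7 CPM at D0, 35.5 in D5_dSMADi, 36.1 in D5_XAV939, 47.85 in D10_dSMADi and 39.3 in D10_XAV939, and 56.7, 40.7 and 45.0 CPM at D22, D24 and D26. The intervals of both D5 conditions overlapped, and D10_dSMADi was the highest of the tagged conditions. The annotated gene overlaps the gene CPM on the other strand.

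Among the genes of cell death, PMAIP1 (ENSG00000141682, chr18:59899996-59904305) encodes NOXA, a BH3-only protein that neutralizes MCL1. Its level was 223 CPM at D0 (220 to 227) and 5.26, 4.67, 6.65 and 11.5 CPM in D5_dSMADi, D5_XAV939, D10_dSMADi and D10_XAV939. D5_dSMADi was thus 42.5-fold lower than D0, the widest gap of the 10 genes between D0 and D5_dSMADi. At D22, D24 and D26 it was 13.2, 3.66 and 0.885 CPM, with intervals that were apart.

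BBC3 (ENSG00000105327, chr19:47220822-47232766, minus strand) encodes PUMA, another BH3-only protein. Its level was 10.3, 9.84, 12.6, 20.5 and 18.8 CPM in D0, D5_dSMADi, D5_XAV939, D10_dSMADi and D10_XAV939, and 19.99, 20.2 and 18.85 CPM at D22, D24 and D26. It was higher in both D10 conditions than in either D5 condition or at D0.

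BAX (ENSG00000087088, chr19:48954815-48961798) encodes the pore former of the mitochondrial outer membrane on which these BH3-only proteins act. Its level was 262 CPM at D0, 84.4 in D5_dSMADi, 81.0 in D5_XAV939, 252 in D10_dSMADi and 137 in D10_XAV939, and 102, 101 and 93.2 CPM at D22, D24 and D26. D10_XAV939 lay between the D5 conditions and D10_dSMADi, clear of both.

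FAS (ENSG00000026103, chr10:88953813-89029605) encodes the death receptor of the extrinsic pathway. Its level was 0.843, 1.58, 2.24, 4.93 and 1.76 CPM in D0, D5_dSMADi, D5_XAV939, D10_dSMADi and D10_XAV939, and 0.774 CPM at D22, with 5 UMIs in all at D24 and 9 at D26. D10_dSMADi stood above the other tagged conditions, and the interval of D10_XAV939 overlapped those of both D5 conditions. FAS overlaps STAMBPL1 on the same strand and ACTA2 on the other, so its reads are uncertain in assignment.

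TP53I3 (ENSG00000115129, chr2:24077433-24085861, minus strand, with FAM228B on the other strand) encodes PIG3, a quinone oxidoreductase linked to oxidative stress in p53-driven death. Its level was 46.7, 19.1, 17.7, 32.5 and 31.1 CPM in D0, D5_dSMADi, D5_XAV939, D10_dSMADi and D10_XAV939. At D22, D24 and D26 it was 163, 81.0 and 38.1 CPM, lower at each later day with intervals apart.

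The other 3 genes act on metabolism, growth and RNA. ZMAT3 (ENSG00000172667, chr3:178960121-179072215, minus strand), a zinc finger protein that binds RNA and influences splicing, had 7.498 CPM at D0, 8.87 (8.23 to 9.55) in D5_dSMADi, 8.73 (8.12 to 9.37) in D5_XAV939, 46.0 (44.5 to 47.5) in D10_dSMADi and 12.8 (11.9 to 13.8) in D10_XAV939. D10_dSMADi stood apart from the other 4, and both D5 conditions overlapped. Late levels of ZMAT3 were 6.19, 5.65 and 5.85 CPM, with overlapping intervals.

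SESN1 (ENSG00000080546, chr6:108984309-109094846, minus strand), a sestrin that restrains mTORC1, had 11.25, 13.9, 12.8, 27.0 and 14.6 CPM in D0, D5_dSMADi, D5_XAV939, D10_dSMADi and D10_XAV939, and 8.82, 8.65 and 11.8 CPM at D22, D24 and D26. It was highest in D10_dSMADi among the tagged conditions and highest at D26 among the late days.

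GDF15 (ENSG00000130513, chr19:18374731-18389176), a secreted stress hormone of the TGF-β family, was low throughout, with 1.41, 0.314, 0.404, 1.47 and 0.689 CPM in D0, D5_dSMADi, D5_XAV939, D10_dSMADi and D10_XAV939. At D22 it had 301 UMIs (2.31 CPM), of which 79.4% lay in 1% of the cells, and at D24 and D26 it had 6 and 3 UMIs. GDF15 was thus carried by few cells at D22 and near the limit of 3 UMIs later.

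**Figure D1:**
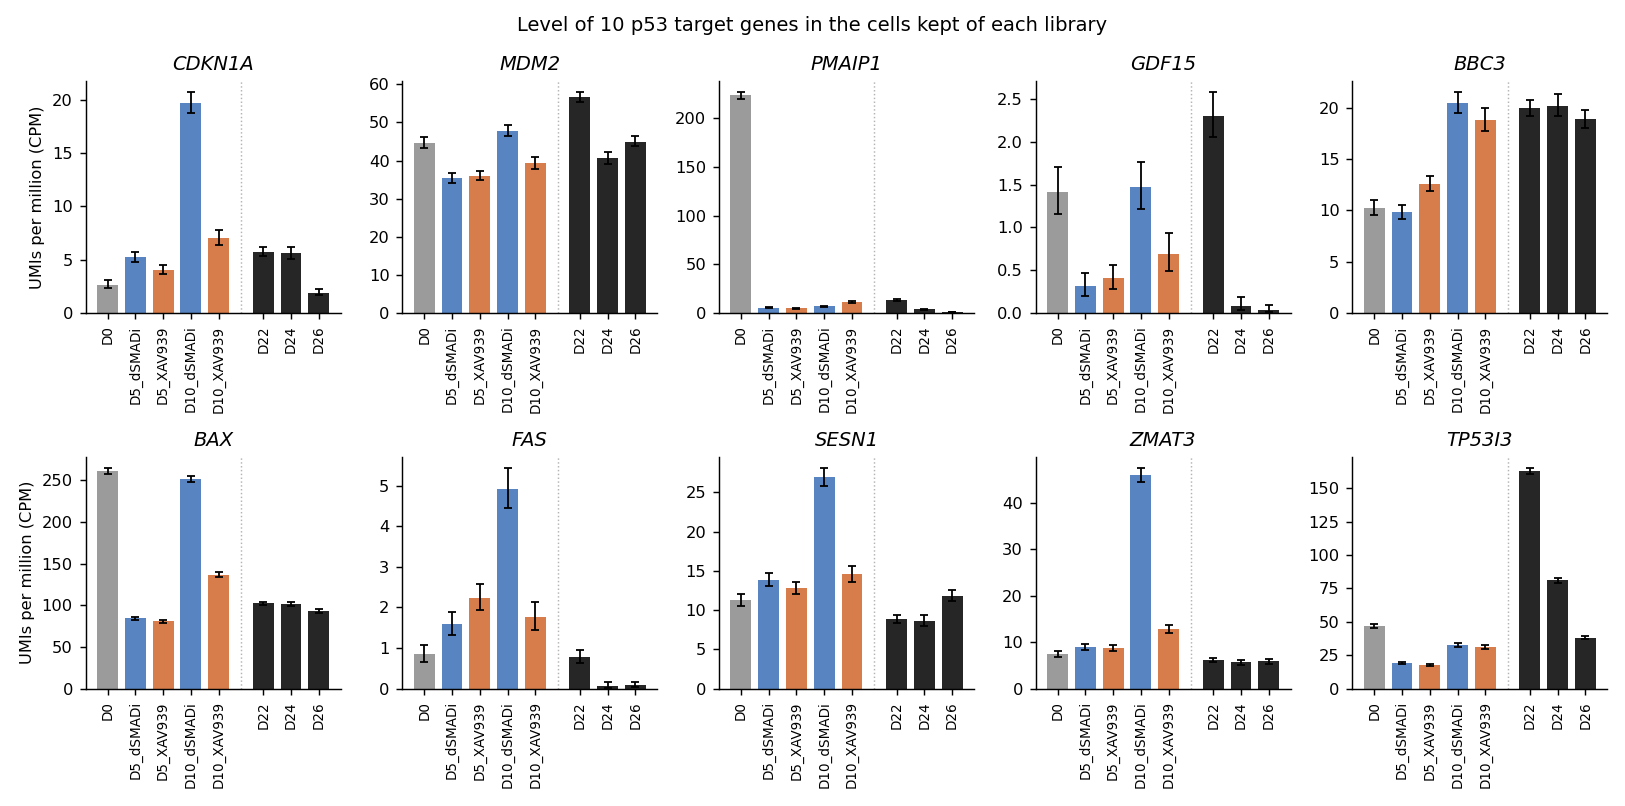
Level of each of the 10 genes in CPM (linear axis from 0, scaled per gene) in the 5 tagged conditions and at D22, D24 and D26, 1 panel per gene. Each bar is the level in 1 library, with its exact 95% Poisson interval, a dotted line parts the tagged conditions from the late days, and D10_dSMADi stands above D10_XAV939 most clearly for ZMAT3 (46.0 against 12.8 CPM), CDKN1A (19.7 against 7.06 CPM) and FAS (4.93 against 1.76 CPM).

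The comparison of XAV939 with dSMADi alone asks what Wnt inhibition did to the differentiating cells. At D10, 6 of the 10 p53 targets were at least 1.5-fold lower with XAV939 and 1 was at least 1.5-fold higher. Over all 16077 genes with at least 50 UMIs in the D10 pair, 10.2% were as much lower and 6.78% as much higher. At D5, 0 of the 10 were past 1.5-fold in either direction, where 4.99% of 15966 genes were lower and 6.85% higher. With 1 library per condition, no difference between conditions has a replicate check, and none was tested. The 10 genes were chosen with earlier results of these data known, so their counts past a limit, here and below, are descriptions only.

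ZMAT3 differed most at D10, with 3.59-fold less in D10_XAV939 (log2 ratio -1.84, interval -1.96 to -1.73). FAS was 2.81-fold lower (-1.49, -1.82 to -1.17) and CDKN1A 2.79-fold lower (-1.48, -1.64 to -1.32). These are an RNA-binding protein, a death receptor and the p21 cell cycle brake. GDF15 was 2.14-fold lower (-1.10, -1.65 to -0.57, on 116 and 40 UMIs), SESN1 1.85-fold lower (-0.89, -1.004 to -0.77) and BAX 1.84-fold lower (-0.88, -0.92 to -0.84). The intervals of these 6 genes did not overlap between the conditions. At a limit of 2-fold, 4 of the 10 were lower (4.52% of all genes) and 0 higher (2.70% of all).

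PMAIP1 went the other way, at 11.5 CPM with XAV939 against 6.65 without, 1.73-fold higher (log2 ratio 0.79, 0.62 to 0.96). Without the cells with at least 2 TOP2A UMIs it was at 0.45, inside the limit of 1.5-fold. MDM2 (-0.28, -0.36 to -0.21) and BBC3 (-0.12, -0.23 to -0.01) were lower by less than 1.5-fold. TP53I3 was at -0.06 (-0.15 to 0.02), an interval that includes 0. The median log2 ratio of the 10 genes at D10 was -0.88, while that of all genes tested was -0.00256.

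At D5 the log2 ratios were small for every one of the 10 genes. FAS (0.50, 0.17 to 0.84) and BBC3 (0.36, 0.22 to 0.49) were higher with XAV939, and CDKN1A was lower (-0.38, -0.59 to -0.17). MDM2, PMAIP1, BAX, SESN1, ZMAT3 and TP53I3 lay between -0.17 and 0.02, and GDF15 at 0.36 had an interval of -0.42 to 1.17 on 35 UMIs with XAV939 and 25 without. Of the 35 UMIs 17 lay in 1 cell, and without the cell richest in GDF15 in each library the ratio was -0.48 (-1.45 to 0.48). ZMAT3, the widest difference at D10, was at -0.02 at D5. The median over the 10 genes was -0.04, beside 0.05 over all genes tested. Without the cells with at least 2 UMIs of TOP2A, a topoisomerase of dividing cells, 2 genes were past 1.5-fold at D5, BBC3 at 1.19 and FAS at 0.99, where 7.35% of 13307 genes were higher and 4.70% lower. GDF15 then had too few UMIs to be counted. By the mean of the CPM of single cells, GDF15 (0.74) and FAS (0.66) were past it, where 7.40% of all genes were higher and 5.09% lower.

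**Figure D2:**
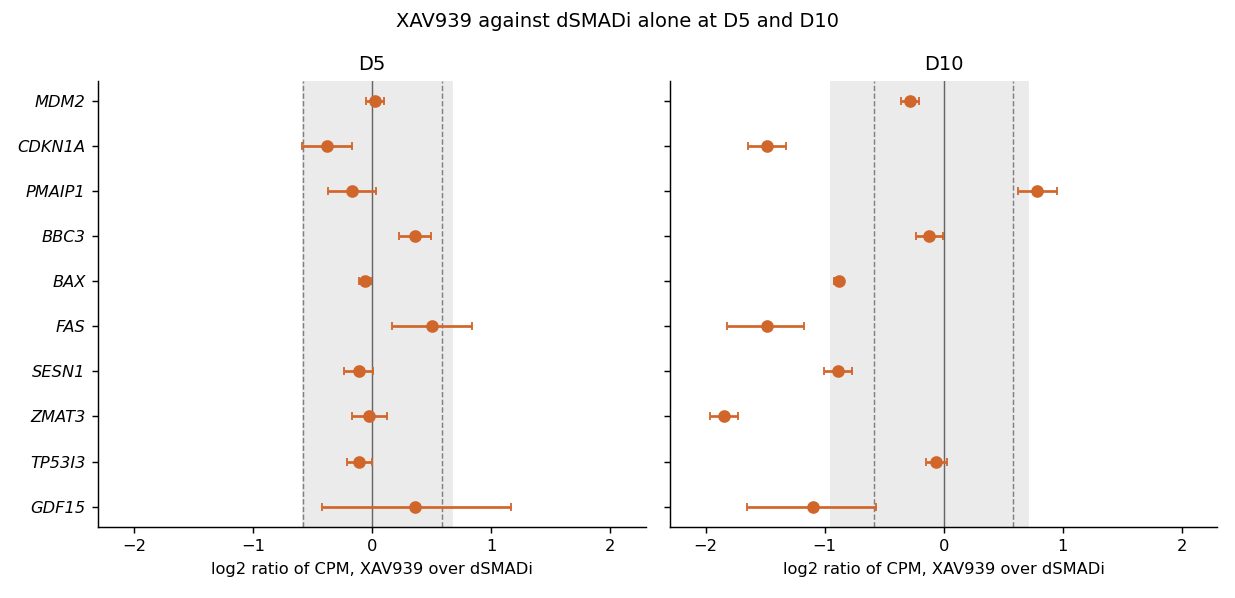
Log2 ratio of CPM with XAV939 over dSMADi alone for each of the 10 genes at D5 and D10, with bars for the interval from the exact split of UMIs. The grey band is the 5th to 95th percentile of all genes tested and the dashed lines are 1.5-fold. All points lie inside the dashed lines at D5, while at D10 6 lie to their left, ZMAT3 at -1.84 the furthest, and PMAIP1 at 0.79 lies to their right.

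The D10 pair shares its libraries with the comparison of D10 with D5, whose values are given here side by side. Without XAV939, 8 of the 10 genes were at least 1.5-fold higher at D10 than at D5, where 23.0% of 16269 genes were, and 0 were as much lower (5.89% of all). ZMAT3 was highest in this respect with a log2 ratio of 2.38, then GDF15 with 2.23, CDKN1A with 1.92, FAS with 1.64 and BAX with 1.58, and the other 3 past the limit were BBC3, SESN1 and TP53I3 at 0.77 to 1.06. MDM2 (0.43) and PMAIP1 (0.34) were inside it. With XAV939, 5 of the 10 were at least 1.5-fold higher at D10 than at D5 (17.7% of 15901 genes) and 0 as much lower (7.67%). These 5 were PMAIP1 at 1.30, CDKN1A and TP53I3 at 0.81 each, GDF15 at 0.77 on 40 and 35 UMIs, and BAX at 0.76. GDF15 was at 1.41 there without its richest cell in each library. BBC3 (0.58), ZMAT3 (0.55), SESN1 (0.19), MDM2 (0.12) and FAS (-0.35) were inside the limit. Genes of other lists were also at least 1.5-fold higher at D10 than at D5. Without XAV939 these included 23 of 34 other p53 targets (median 1.15), 9 of 11 ATF4 genes (1.26), 7 of 13 multiciliated programme genes (0.62), 4 of 6 neural progenitor markers (1.56), 3 of 6 neuron markers (0.79) and 3 of 4 mesenchymal markers (1.55, with the other 1 as much lower). With XAV939 they included 14 of 32 other p53 targets (median 0.49, with 3 lower), 9 of 11 ATF4 genes (2.51), 5 of 6 neural progenitor markers (2.03), 4 of 6 neuron markers (2.19) and 2 of 4 mesenchymal markers (-0.13, with the other 2 lower). Their part in the result for the p53 targets was not tested.

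Other genes of the p53 pathway were taken from lists, also chosen with earlier results of these data known, so their counts are descriptions too. Of 35 further p53 targets, 33 had enough UMIs at D10, and 15 of them were at least 1.5-fold lower with XAV939 (10.2% of all genes) and 1 was higher (6.78% of all), with a median log2 ratio of -0.44. The widest differences were those of TNFRSF10A (-2.98, 0.189 against 1.498 CPM), which encodes a receptor for the death ligand TRAIL, SPATA18 (-2.36), a gene of mitochondrial quality control, and GLS2 (-1.80), a glutaminase, all on 11 to 188 UMIs a library. Another 3 of much higher level, chosen after their values were seen, were PHLDA3 (21.2 against 56.95 CPM, -1.43), an inhibitor of AKT, FDXR (18.99 against 47.6 CPM, -1.32), a mitochondrial reductase, and RPS27L (429 against 895 CPM, -1.06), a ribosomal protein homologue. The 1 target that was higher, also chosen after its value was seen, was SESN2 at 55.0 against 31.6 CPM (0.80), a sestrin that is a target of ATF4 too. At D5, 2 of these 33 targets were higher (6.85% of all genes), 5 were lower (4.99% of all) and the median was -0.23, with KITLG (2.01), SFN (-1.37) and SPATA18 (-1.07) at the ends.

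Genes that act on p53, rather than under it, gave 0 of 11 past 1.5-fold at both days, with a median of 0.21 at D10. HIPK2 (0.47), a kinase of p53, and ATR (0.30) and CHEK2 (0.26), of the DNA damage checkpoint, were the furthest of this list.

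**Figure D3:**
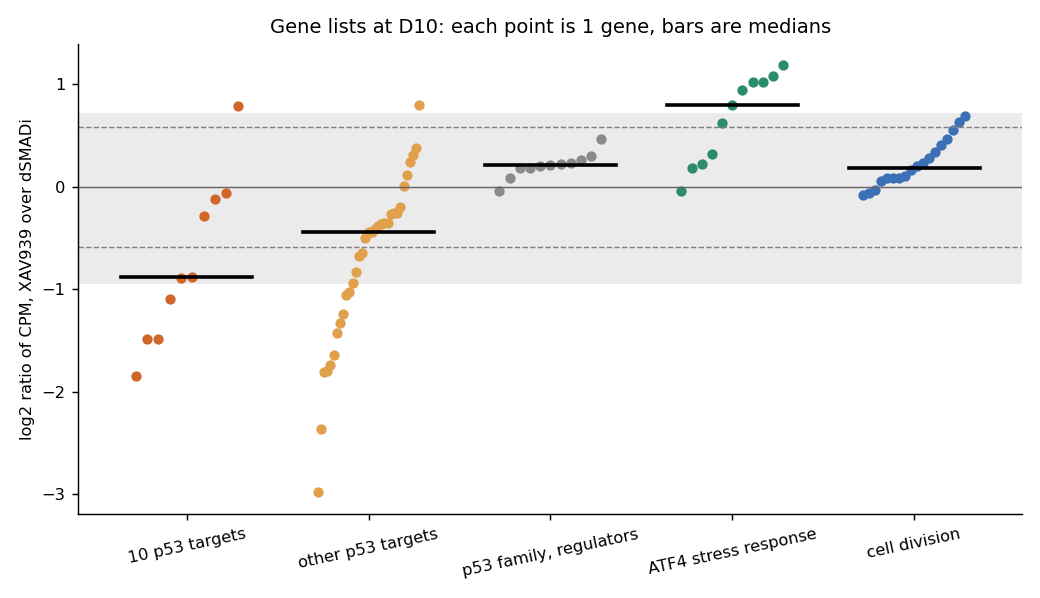
Log2 ratio of D10_XAV939 over D10_dSMADi for each tested gene of the lists, 1 column per list, with 1 point per gene and a black bar at the median of the list. The grey band is the 5th to 95th percentile of all genes tested, the thin solid line their median and the dashed lines 1.5-fold. The 10 targets (median -0.88) and the other p53 targets (median -0.44) lie mostly below that line, and the ATF4 list (median 0.80) lies mostly above it.

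Other lists were read in the same contrast beside the 6.78% of all genes that were higher and the 10.2% that were lower. Of the ATF4 stress response, 7 of 11 genes were at least 1.5-fold higher in D10_XAV939 (median 0.80), led by ASNS (1.18), CHAC1 (1.08) and TRIB3 (1.02). SESN2, which was higher there, is counted both in this list and in that of the other p53 targets. Of the cell division list 2 of 18 genes were higher, MCM2 (0.69) and MCM5 (0.63), and its median of 0.18 lay inside the middle range of all genes (quartiles -0.22 and 0.20). Of the other CDK inhibitors 2 of 5 were higher, CDKN1C (0.86) and CDKN2D (0.78). Of immediate early and heat shock genes, 3 of 11 were lower, FOSB (-2.69), FOS (-1.05) and EGR1 (-0.68). The part of these genes in the result for the p53 targets was not tested.

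Markers of other cell types also differed between the D10 libraries. The summed level of the 6 neuron markers was 508 CPM with XAV939 and 297 without, that of the 6 neural progenitor markers 2809 and 2469, of the 6 mesenchymal markers 12.8 and 41.3, of the 6 epithelial markers 215 and 346 and of the 4 endoderm markers 1.19 and 4.10 CPM. SOX17 and FOXA2 were at 0 in D10_dSMADi, as was DCN, and COL3A1 and FOXA2 were at 0 in D10_XAV939. Cells with at least 2 UMIs of STMN2, COL1A2, TFAP2A or APOA1 were 550 of 2416 in D10_dSMADi and 189 of 2168 in D10_XAV939. COL1A2 alone marked 480 and 57 of these cells, and also 508 of 1008 at D0, and APOA1 marked 34 and 4. STMN2 (49 and 113 cells) and TFAP2A (8 and 84) went the other way, with more marked cells in D10_XAV939. Without the cells marked by any of the 4 genes, 7 of the 10 were past 1.5-fold, where 6.28% of 15438 genes were higher and 9.48% lower, with CDKN1A at -1.35, ZMAT3 at -1.76, FAS at -1.25, GDF15 at -0.99, BAX at -0.85, SESN1 at -0.84 and PMAIP1 at 0.83. This repeat was chosen after seeing the data, and the ratios stayed on the same side of the limit for all 7.

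CDKN1A, ZMAT3 and BAX were lower with XAV939 both among dividing cells and among the rest. In cells with at least 2 TOP2A UMIs, CDKN1A was at 20.7 CPM in D10_dSMADi and 7.51 in D10_XAV939, and in the other cells at 16.8 and 5.52. For ZMAT3 these pairs were 45.6 with 13.2 and 47.1 with 11.4 CPM, and for BAX 260 with 141 and 229 with 122 CPM. Without the TOP2A class 5 of the 10 genes were past 1.5-fold, these 3 with FAS and SESN1, all lower, where 8.07% of 13013 genes were lower and 8.02% higher. PMAIP1 was then at 0.45, and GDF15 had too few UMIs to be counted. After thinning of every cell to 10000 UMIs, CDKN1A had a UMI in 13.4% of D10_dSMADi cells (12.1 to 14.8) and 5.26% of D10_XAV939 cells (4.36 to 6.28), and ZMAT3 in 32.95% and 10.65%. Without thinning the shares were 28.7% and 11.8% for CDKN1A and 60.3% and 23.99% for ZMAT3. No class of cells that should lack these genes was defined, so the share that free RNA gives was not measured. For CDKN1A and ZMAT3 the lower level in D10_XAV939 was thus seen as fewer cells with a UMI and within each TOP2A class.

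Within either D10 library, each of the other 9 genes was at a higher level in cells with at least 3 CDKN1A UMIs than in cells with none. The share of all genes that were also higher there was not computed, so nothing is read from this count. In D10_XAV939 the intervals of these 2 classes overlapped for MDM2 (38.9 to 66.5 against 36.55 to 39.99 CPM) and TP53I3 (26.5 to 50.1 against 29.2 to 32.25 CPM). Cells of D10_dSMADi with 0, 1, 2 and at least 3 CDKN1A UMIs (1723, 368, 117 and 208 cells) had 33.8, 57.0, 89.5 and 89.9 CPM of ZMAT3, and those of D10_XAV939 (1912, 176, 46 and 34 cells) had 10.9, 20.1, 28.2 and 45.05. BAX was at 217, 290, 358 and 373 CPM in these classes of D10_dSMADi and at 127, 183, 207 and 266 in those of D10_XAV939. SESN1 and FAS followed the same order in both libraries, SESN1 from 20.98 to 54.2 CPM without XAV939 and from 13.2 to 39.6 with it, and FAS from 2.98 to 14.9 and from 1.53 to 9.01. BBC3 went from 13.9 to 52.3 CPM without XAV939 and from 16.4 to 55.9 with it, a range that was similar in both libraries.

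MDM2 went from 39.6 to 98.0 CPM over these classes in D10_dSMADi, and from 38.2 to 51.4 in D10_XAV939. PMAIP1 was at 5.45 CPM in cells without a CDKN1A UMI and 13.8 in those with at least 3 without XAV939, and at 10.6 and 38.7 with it. TP53I3 differed least, at 29.3 and 47.8 CPM without XAV939 and at 30.7 and 36.9 with it, and at D5 it was at 19.2 and 20.8 CPM in D5_dSMADi and at 17.98 and 13.6 in D5_XAV939. At D5, where few cells had a CDKN1A UMI, ZMAT3 went from 7.90 to 28.3 CPM in D5_dSMADi and from 7.93 to 37.8 in D5_XAV939. Cells with more CDKN1A UMIs were also deeper, at a median of 29690 UMIs with none and 37325.5 with at least 3 in D10_dSMADi. At equal CDKN1A counts ZMAT3 and BAX were lower in D10_XAV939 than in D10_dSMADi in all 4 classes.

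**Figure D4:**
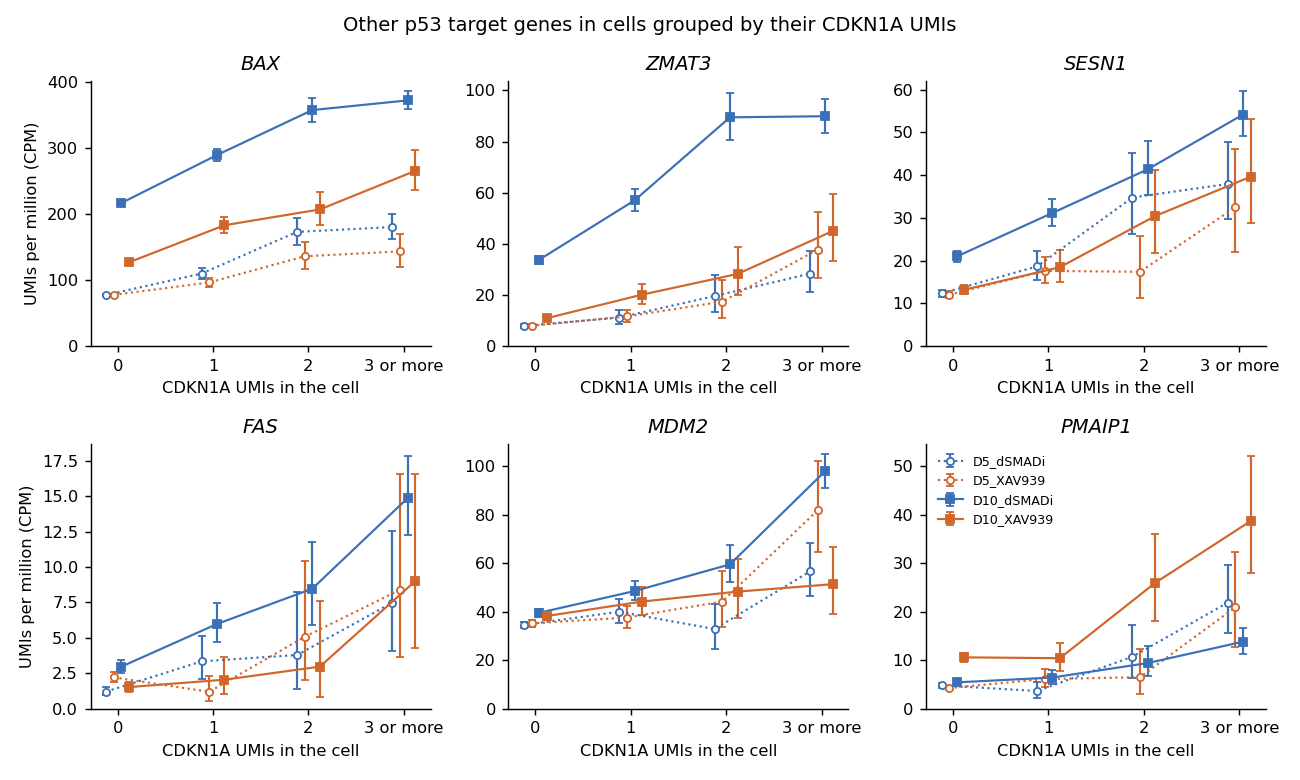
Level in CPM of 6 targets in cells grouped by their number of CDKN1A UMIs (0, 1, 2, at least 3) in the 4 libraries of D5 and D10. Points are summed UMIs of a class and bars are exact 95% Poisson intervals, which widen where a class holds few cells, and ZMAT3 goes from 33.8 to 89.9 CPM in D10_dSMADi.

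The second comparison concerns CCNO, cyclin O, which is needed for the mass production of centrioles in multiciliated cells. Cells with at least 2 CCNO UMIs numbered 70 at D22, 10 at D24 and 0 at D26, so the comparison was made at D22 and D24. Among the 10 genes, CDKN1A and PMAIP1 were at least 2-fold higher in these cells at both days, as were 2.14% of 17256 genes. BAX, MDM2, BBC3 and SESN1 had log2 ratios above 0 at both days, but the share of all genes that did was not computed, so nothing is read from it. Of these, only BAX had counting intervals above 0 at both days. The intervals of BBC3 and SESN1 included 0 at both days, and SESN1 rested on 1 UMI at D24. By edgeR's quasi-likelihood test on UMIs summed by library and class, with the library as a block, CDKN1A and PMAIP1 were called higher among the 7 genes that passed the filter on low levels and 0 were called lower, while of 9803 genes tested 1.30% were called higher and 0.796% lower. CDKN1A was chosen with this pattern known, and all 10 genes with earlier results of these data known, so nothing is read from this count. FAS, GDF15 and ZMAT3 did not pass the filter. The 2 libraries are 2 days and the fit left 1 residual degree of freedom.

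CDKN1A was at 53.4 CPM in CCNO-rich cells and 5.35 in the other cells at D22, a log2 ratio of 3.32 (2.89 to 3.72), and at 119 and 5.42 CPM at D24, 4.46 (3.49 to 5.28). The intervals of the classes were far apart at both days. As it was chosen with this pattern known, its fitted log2 difference of 3.68 is given without a standard error or p-value. Of the 70 cells at D22, 26 had a CDKN1A UMI (37.1%), against 4.29% of the other cells, and after thinning to 1500 UMIs the shares were 10.0% (4.12 to 19.5) and 0.815% (0.643 to 1.02). At D24 the 12 UMIs of CDKN1A lay in 5 of the 10 cells.

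PMAIP1 was at 167 CPM in CCNO-rich cells and 11.98 in the others at D22 (log2 ratio 3.80, 3.57 to 4.03), and at 29.8 and 3.63 CPM at D24 (3.04, 0.75 to 4.604), where it rested on 3 UMIs. Its fitted log2 difference was 3.63, given without a standard error or p-value as for CDKN1A. At D22, 42 of the 70 cells held a PMAIP1 UMI, and 18 of these 42 held a CDKN1A UMI too. Without the library as a block, 0 of the 7 genes and 1 of all 9803 were called by the same edgeR test, so the calls given below for other lists rest on the block as well.

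The other targets that were tested were not called in these cells, and FAS, GDF15 and ZMAT3 did not pass the filter. In a repeat of the fit without the filter, these 3 had log2 differences of 0.18, 0.89 and -1.43 and were not called. ZMAT3 was at 6.22 and 5.65 CPM in the other cells at D22 and D24, above the limit of 5 CPM. It missed the filter through its low level in the CCNO-rich cells. MDM2 was at 94.0 and 56.4 CPM at D22 (0.74, 0.43 to 1.03) and at 59.65 and 40.6 CPM at D24 (0.55, -0.89 to 1.68), with an adjusted p of 0.776 in edgeR. BAX was at 131 and 102 CPM at D22 (0.35, 0.10 to 0.60) and at 249 and 101 CPM at D24 (1.30, 0.67 to 1.86), with an adjusted p of 0.454 in edgeR. The counting intervals of both genes excluded 0 at D22, and that of BAX at D24 too.

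BBC3 (0.25 and 0.56), SESN1 (0.01 and 0.20) and TP53I3 (-0.13 and 0.88) had log2 ratios at D22 and D24 of which only that of TP53I3 at D24 had an interval above 0 (0.04 to 1.61). ZMAT3, the gene that differed most at D10, had 3 UMIs in the 70 cells at D22, a log2 ratio of -1.07 (-3.35 to 0.49), and 0 UMIs in the 10 cells at D24. FAS had 0 UMIs at D22 and 1 at D24, and GDF15 had 5 (1.11, -0.52 to 2.35) and 0. Counting genes at least 2-fold higher at both days, with no test, gave CDKN1A and PMAIP1 among the 10, and 2.14% of 17256 genes.

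**Figure D5:**
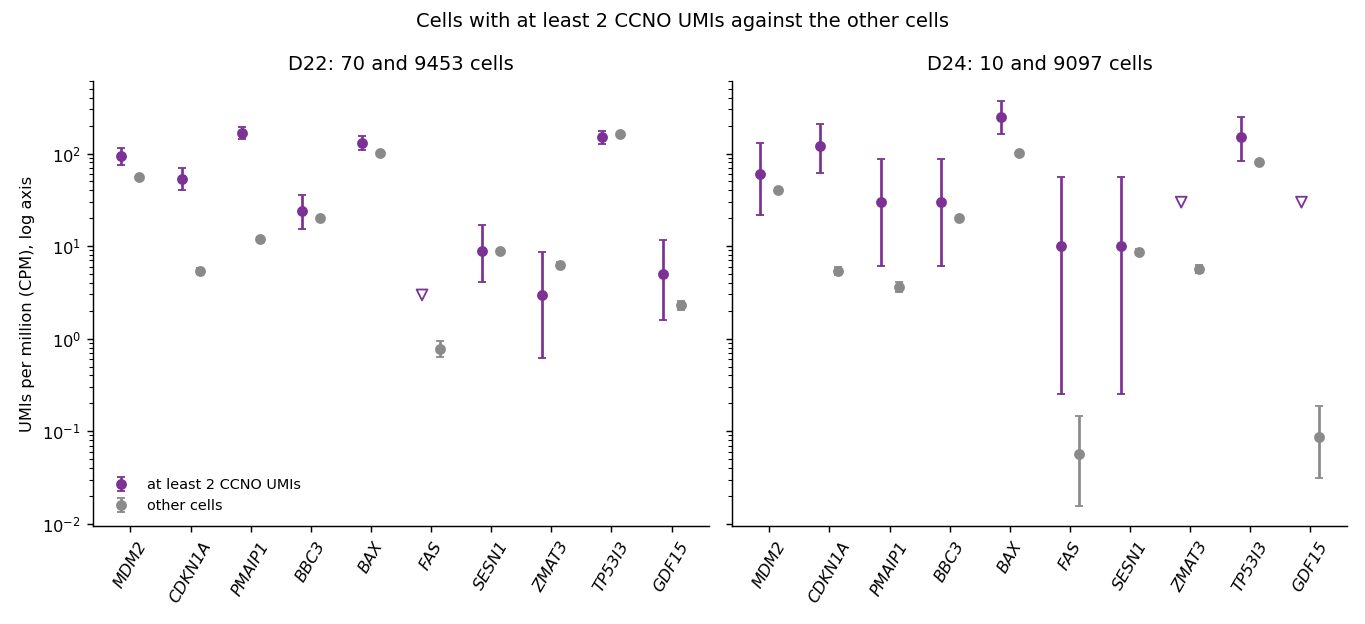
Level in CPM (log axis) of the 10 genes in cells with at least 2 CCNO UMIs and in the other cells, at D22 and at D24. Points are summed UMIs, bars are exact 95% Poisson intervals and open triangles mark 0 UMIs, drawn at the limit of 3 UMIs. The intervals of CDKN1A, PMAIP1 and BAX are apart between the classes at both days. At D22 CDKN1A was at 53.4 against 5.35 CPM, PMAIP1 at 167 against 11.98 CPM and BAX at 131 against 102 CPM.

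At D22 the levels of PMAIP1 were in the order of the amount of CCNO, though the intervals of some neighbouring classes overlapped. Cells with 0, 1, 2 to 4, 5 to 9 and 10 or more CCNO UMIs (9317, 136, 26, 13 and 31 cells) had 11.9, 14.75, 62.4, 138 and 276 CPM of PMAIP1. Intervals overlapped between 0 and 1 CCNO UMIs (11.3 to 12.55 and 9.88 to 21.2 CPM). They also overlapped between 2 to 4 and 5 to 9 (39.98 to 92.8 and 91.9 to 199.9 CPM). For CDKN1A these levels were 5.31, 7.63, 33.8, 19.8 and 87.3 CPM, the fourth on 4 UMIs, and for MDM2 56.5, 48.3, 67.6, 79.1 and 125 CPM. The median depth of these classes was 12154 to 13549 UMIs per cell. At D24 the 6, 1 and 3 cells with 2 to 4, 5 to 9 and 10 or more CCNO UMIs had 9, 1 and 2 UMIs of CDKN1A (147, 126 and 63.4 CPM) and 2, 0 and 1 of PMAIP1, which gave no such order. At D26, the 84 cells with 1 CCNO UMI held 1 UMI of CDKN1A and 0 of PMAIP1.

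Classes gated on other genes in the same way did not reach these levels of CDKN1A at D22. It was at 3.62 CPM in cells with at least 2 UMIs of TOP2A, at 4.47 with at least 2 of DLX5, a marker of the GABAergic lineage to which the GnRH neurons belong, and at 2.63 with at least 2 of PPP1R17, a marker of the glutamatergic neurons. At D24 these levels were 9.28, 5.22 and 1.82 CPM. In cells with at least 2 UMIs of CRABP1, a retinoic acid binding protein, CDKN1A was at 5.85 CPM at D22 and 11.8 at D24. PMAIP1 was at 23.2 CPM in cells with at least 2 TOP2A UMIs at D22 and at 8.55 in the rest. At D22, 8 of the 70 CCNO-rich cells were in the TOP2A class (11.4%), against 24.9% of the other cells, while at D24 it was 1 of 10, against 0.605% of the others. At D22, 18 were in the CRABP1 class (25.7%), against 13.9% of the others.

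Of the other p53 targets, 3 were called higher by the same edgeR test with the block, and 0 were called lower. Of all 9803 genes tested, 1.30% were called higher and 0.796% lower. The 3 were KITLG (log2 difference 2.36), the ligand of KIT, GADD45A (1.37), a gene of growth arrest and DNA repair, and RPS27L (0.84). This list was chosen with earlier results of these data known, so nothing is read from the count and no p-value is given. In all 25 of this list passed the filter, 22 of them by their level in the other cells alone. KITLG was at 33.6 and 4.71 CPM in CCNO-rich and other cells at D22, GADD45A at 148 and 62.7 and RPS27L at 580 and 441. TP73, a p53 relative that also acts in multiciliated cells, was at 84.1 and 0.634 CPM at D22 and at 39.8 and 0.928 CPM at D24.

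TP73 and 6 other genes of the multiciliated cell programme passed the filter only through the CCNO-rich cells, so no count or test of that list is given. Its genes did not all stand on the same side. CDC20B, which lies beside CCNO on the chromosome, was at 200 and 0.17 CPM in CCNO-rich and other cells at D22 and E2F7 at 366 and 12.1 CPM, while CDC25C was at 5.94 and 18.6 and CCNA1 at 8.90 and 11.3 CPM. In the 10 CCNO-rich cells of D24, 9 of the 18 genes of the list were at 0, GMNC, FOXN4, DEUP1 and MYB among them. Of the cell division list 5 of 17 were called lower and 0 higher, where 0.796% of all 9803 genes were called lower and 1.30% higher. These 5 were HMGB2 (-1.49), MKI67 (-1.77), CCNB2 (-1.62), UBE2C (-1.52) and TOP2A (-1.32). The summed level of this list was 1172 CPM in CCNO-rich cells and 2844 in the others at D22, but 408 and 181 CPM at D24, where 10 of its 18 genes were at 0 in the CCNO-rich cells. Beside the same 0.796% of all genes, 1 of 5 other CDK inhibitors was called lower, CDKN3 (-1.89), a phosphatase that is itself highest in dividing cells. Of the neuron markers 1 of 6 was called lower, GAP43 (-0.96), beside that share too. Of the immediate early and heat shock genes, IER2 was called higher (1.14), where 1.30% of all genes were. It was at 119.7 and 43.4 CPM at D22 and 109 and 67.9 CPM at D24. JUNB passed the filter only through the CCNO-rich cells, at 39.6 and 7.32 CPM at D22 and with 0 UMIs in the 10 such cells of D24. The summed level of these genes was 376 and 253 CPM at D22 and 318 and 289.6 CPM at D24, and their part in the result for CDKN1A and PMAIP1 was not tested. These genes were named after their values were seen.

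Markers of other cell types gave no further call among 6 neural progenitor, 2 epithelial and 1 pluripotent markers tested. At D22 the summed level of the neuron markers was 2322 CPM in CCNO-rich cells and 2174 in the others, and that of the neural progenitor markers 492 and 826. At D24 the neuron markers were at 5875 and 12420 CPM and the neural progenitor markers at 129 and 182 CPM, on 10 CCNO-rich cells. The mesenchymal markers summed to 2.97 and 5.96 CPM at D22, the epithelial to 41.55 and 45.6, the endoderm to 0.989 and 1.105 and the pluripotent to 51.45 and 64.95 CPM. COL1A1, COL1A2 and COL3A1 had 0 UMIs in the CCNO-rich cells of D22 and 0.549 to 2.78 CPM in the others, too low for a count of 0 in 70 cells to set the classes apart.

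Between neighbouring late days, 4 of the 10 genes were at least 1.5-fold lower at D24 than at D22, PMAIP1 (-1.85), TP53I3 (-1.01), GDF15 (-4.75, on 301 and 6 UMIs) and FAS (-3.44), beside 28.3% of 16188 genes. Between these days all 18 cell division genes (median -4.02) and all 6 neural progenitor markers (-2.98) were at least 1.5-fold lower and all 6 neuron markers (1.45) higher, and their part in the result was not tested. At D26 against D24, 3 of the 8 genes with enough UMIs were as much lower, CDKN1A (-1.56), PMAIP1 (-2.05) and TP53I3 (-1.09), beside 9.75% of 15619 genes, as were 13 of the 18 cell division genes (median -1.44). From D0 to D5_dSMADi, PMAIP1 (-5.41), GDF15 (-2.17), BAX (-1.63) and TP53I3 (-1.29) were lower, while CDKN1A (0.98) and FAS (0.91) were higher, where 33.0% of 16436 genes were lower and 22.1% higher. Over the same step 5 of 6 pluripotent markers (median -4.79) and 8 of 11 ATF4 genes (-0.92) were lower and 5 of 6 neural progenitor markers (1.82) higher. D22, D24 and D26 were separate runs and differ in depth, and D0 was deeper than the D5 libraries of the same run.

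Genes most like CDKN1A and MDM2 were sought over 10 groups of cells, the 5 tagged conditions and the classes of D22, D24 and D26, among 6062 genes with a mean of at least 20 CPM. By Pearson's r of log2(CPM + 1), those nearest CDKN1A were PIFO (0.94), RPL26L1 (0.91), GLT8D1 (0.90), PURPL (0.90) and XPNPEP3 (0.89). Those nearest MDM2 were GADD45A (0.95), WRAP73 (0.91), EIF4A3 (0.89), HES6 (0.89) and MRPS11 (0.89). CDKN1A itself, PIFO and WRAP73 passed this filter only through the CCNO-rich classes. CDKN1A was known beforehand to be high there, so nothing is read from its ranking. PIFO had 61.4 and 109 CPM there and 1.17 to 5.92 CPM in the other 8 groups, and WRAP73 had 74.2 and 19.9 CPM there and 10.8 to 16.02 CPM in the others. CDKN1A was also highest in these classes, and the groups share libraries and differ in depth, and some hold few cells, so these are descriptions. PURPL, a noncoding RNA known as a p53 target, was at 115 CPM in D10_dSMADi and 31.9 in D10_XAV939. It was picked for its likeness to CDKN1A over groups that include both of these conditions, so nothing is read from this difference.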

How the data were processed

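The authors deposited UMI counts per gene and cell barcode from Cell Ranger, aligned to GRCh38, with no normalization (file headers name version 3.1.0 for D22 to D26 and 6.1.2 for the tagged pool). Cells were kept by the limits of the study on UMIs, genes, mitochondrial share and complexity. At D0 the stated limit on complexity kept 1 cell when read as a minimum, so it was read as a maximum, which kept 1008 of 1292 barcodes. For D5 and D10 the study gives as analysed the number of barcodes in the files, and its limits leave fewer. No doublet caller was run.

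Levels are summed UMIs of a library or class of cells scaled to 1000000 UMIs (CPM) with exact Poisson intervals, and ratios have intervals from the exact binomial split of UMIs (95%, counting error only). Shares have Clopper-Pearson intervals. Called means past 1.5-fold with at least 50 UMIs over both libraries, since 1 library per condition allows no test. For CCNO, sums of D22 and D24 were tested with edgeR 4.0.16 (quasi-likelihood, TMM, library as block, mean of at least 5 CPM, Benjamini-Hochberg, threshold 0.05) in R 4.3.3. A fit of 3 libraries had been planned, but D26 held 0 cells with 2 CCNO UMIs. The block is the library itself, from which both classes of cells were taken. The ratio and the fit were tried on simulated Poisson counts. These hold no added spread between cells or cultures, so error from such spread was not checked.

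Alternatives were DESeq2 1.42.0, other scaling, filters, gates and cell limits. After seeing the data, repeats without cells rich in markers of other types and without the cell richest in a gene were added. The members and lists were chosen with earlier results of these data known. By rule the members, up to 3 genes of a list with the widest difference and the 5 genes most like CDKN1A and MDM2 were named. Other list genes, those called in CCNO-rich cells included, were named after their values were seen. Some genes of the lists are not reported here, and neither are the neural crest markers as a list. Sequences are from the GRCh38 reference with GENCODE 44.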

Additional observations from a re-analysis of the deposited data

Results flagged for a closer look

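FAS and BBC3 stood on opposite sides of 0 at D5 and D10 in the comparison of XAV939 with dSMADi alone. For FAS the log2 ratio was 0.50 at D5 and -1.49 at D10, a change of -1.99 between the days. For BBC3 it was 0.36 at D5 and -0.12 at D10, a change of -0.48. Without cells with at least 2 TOP2A UMIs BBC3 was at 0.06 at D10, so its opposite sign did not hold under that alternative. With all cells kept, the counting intervals excluded 0 at both days for both genes. Each ratio compares 1 library with 1 library, and the difference between the days was not tested.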

How the results depend on the processing

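Of 334 values of single genes recomputed under the alternatives, 309 stayed on the same side of the limit or within counting error, 23 moved, 2 lost the call and 0 turned direction with a call. The number of members called in CCNO-rich cells was 2 in all edgeR and DESeq2 fits but the fit without the replicate block, where it was 0. With a gate of 1 CCNO UMI, the log2 ratio of CDKN1A was 2.12 at D22 and 3.12 at D24. At D5 the number of members past 1.5-fold was 2 without cells with at least 2 TOP2A UMIs and 2 with the mean of single-cell CPM. At D10 it was 4 at a limit of 2-fold and 5 without the TOP2A cells. The causes were not tested. Over the 9 settings of each gene at D10, the log2 ratio was -1.60 to -1.35 for CDKN1A, -2.04 to -1.76 for ZMAT3, -1.97 to -1.25 for FAS, -0.91 to -0.84 for BAX, -1.50 to -0.71 for GDF15, 0.45 to 0.91 for PMAIP1 and -0.16 to 0.06 for BBC3. Leaving out 1 of the 2 late libraries was not possible, as no residual degree of freedom would remain, and D26 gave no ratio. Depth limits GDF15, FAS and ZMAT3 in the CCNO-rich cells, where they had 0 to 5 UMIs.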
